A study of Mus musculus with 67 samples.

Results

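The data described here are the DNA copy profiles of 20 blastomeres, the single cells of mouse embryos at the 8-cell stage, which had been exposed to the solvent DMSO alone. All cells in the deposited table of this treatment were taken, and all bins on the 19 autosomes. They are 20 of the 67 cells of the series, and the remaining cells, which received aphidicolin (75 ng/ml), are not considered. The embryos were of the strain BDF1, a hybrid of inbred laboratory mice, and started from zygotes flushed from females that had been superovulated and mated. They were cultured in vitro in CZB medium, met DMSO with no aphidicolin during the 4-cell stage, and were taken apart into single cells under the microscope at the 8-cell stage. The deposited metadata assign 4 cells (numbered 7 to 10) to embryo DMSO 1, 8 cells (11 to 18) to embryo DMSO 2 and 8 cells (19 to 26) to embryo DMSO 3. Cells of 1 embryo share their parents and their culture, so they are not separate embryos, and each test over cells speaks of these 3 embryos only.

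Single-cell replication profiling (scRepli-seq) amplifies and sequences the genome of 1 cell and reads the density of reads along the chromosomes as relative copy number. A chromosome segment that replicates early in S phase is present in more copies than one that replicates late while the cell is in the middle of replication, and in equal copies before and after it. In differentiated mammalian cells early segments are mostly gene-rich and accessible, and late segments mostly gene-poor and attached to the nuclear lamina. Read density also follows the number of copies a cell carries for other reasons, the evenness of amplification and the ease of mapping, and the part of each in the profiles below was not tested.

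The cells had between 1.47 and 2.83 M recovered reads, with a median of 2.26 M. A 1-Mb window of median density held between 602 and 1165 reads per cell, which gives a counting error of between 0.04 and 0.06 on the log2 scale. All 20 cells were marked as passing and 0 as manually filtered, and they shared 1 batch and 1 label for the time of collection, from G1 into early S phase. Cells 23 and 24, both of embryo DMSO 3, stood apart from the others. Cell 23 had the flattest profile, and cell 24 had a profile of ordinary height whose windows lay in a different order. The comparisons between embryos are given with and without them.

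The median over the 20 cells was taken in each of 2394 autosomal windows. This median profile ran from -0.54 at its 10th percentile to 0.43 at its 90th percentile, on the log2 scale relative to the cell median. That difference of 0.97, called the amplitude, equals 1.95-fold in read density. A mixture of 2 normal distributions placed a lower level at -0.38 and an upper level at 0.24. The step between these levels was 1.54-fold in read density.

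A window was called high where it lay above the midpoint of the 5th and 95th percentiles of its profile, which was -0.06 for the median profile. By this rule 1354 windows (56.6%) were high, in 350 runs with a median length of 3 Mb, and the low windows formed 341 runs with a median length of 2 Mb. The longest high run covered the distal 41 Mb of chromosome 4, at chr4:114000001-155000000 (mm9), with a median level of 0.42. Chromosome 4 also held the longest low run, 19 Mb at chr4:63000001-82000000, at -0.55. Levels of windows 1 Mb apart were correlated at r = 0.647, those 2 Mb apart at 0.394 and those 5 Mb apart at 0.138. Windows are medians of overlapping bins treated as 1 Mb wide, so windows 1 Mb apart share reads. This alone raises the first value, by an amount that was not computed. Windows 2 Mb or more apart share no reads, and there the likeness fell from 0.394 to 0.138 within a few megabases.

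The regions of highest level lay on chromosomes 4, 11 and 15. In chr15:83000001-86000000 the cells ranged from 0.28 (cell 13) through a median of 0.57 to 1.03 (cell 25). In chr4:116000001-121000000, inside the long high run, they ranged from 0.19 (cell 13) through 0.52 to 0.84 (cell 10). The others were chr11:100000001-103000000, chr15:98000001-103000000 and chr11:94000001-98000000, with cell medians of 0.55, 0.54 and 0.55. All 5 regions were high in all 20 cells. Embryo DMSO 2 had the lowest mean level in each of them, as it had in the 5 regions of lowest level given next.

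The regions of lowest level lay on chromosomes 2, 4, 14 and 17. In chr4:64000001-68000000 the cells ranged from -1.09 (cell 17) through -0.67 to -0.18 (cell 23). In chr2:98000001-101000000 they ranged from -1.06 (cell 11) through -0.69 to -0.21 (cell 23). The other 3 were chr4:90000001-93000000, chr17:90000001-93000000 and chr14:113000001-118000000, with cell medians of -0.64, -0.65 and -0.67. All 5 regions were high in 0 of the 20 cells. The cell nearest to the genome median was cell 23 in the 3 regions on chromosomes 2 and 4 and cell 24 in the other 2. Embryo DMSO 2 had the lowest mean level in these 5 regions too. Over all windows its median difference from DMSO 1 was -0.08 with cells centred on their median. With cells centred on the midpoint that separates high from low windows it was 0.07. The region means were not taken under other centrings.

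Chromosomes differed in their share of high windows, from 41.7% on chromosome 3 to 72.4% on chromosome 19. The median level of the profile was -0.21 on chromosome 3 and -0.12 on chromosome 14, and it was 0.25 on chromosome 11 and 0.16 on chromosome 19. Each chromosome nevertheless carried both kinds of segment, with an amplitude between 0.75 (chromosome 19) and 1.01 (chromosome 17) on the log2 scale.

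Whether a window was high or low was shared by all cells in only part of the genome. Of the 2394 windows, 433 (18.1%) were high in all 20 cells and 364 (15.2%) in none. Another 587 windows (24.5%) were high in 5 to 15 of the cells. The windows were then ranked by the median profile and divided into 10 level groups of equal size, from group 1 (lowest) to group 10 (highest). The median cell had 0% of the windows of group 1 high, 56.7% of group 5, 84.1% of group 6 and 100% of group 10. The cells differed most in the middle of the ranking: in group 5 the share ran from 5.86% (cell 20) to 92.9% (cell 18). The ranking is made from the median of these same cells, which in part fixes their agreement at its ends. No conclusion is drawn from the contrast between the middle and the ends.

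**Figure D1:**
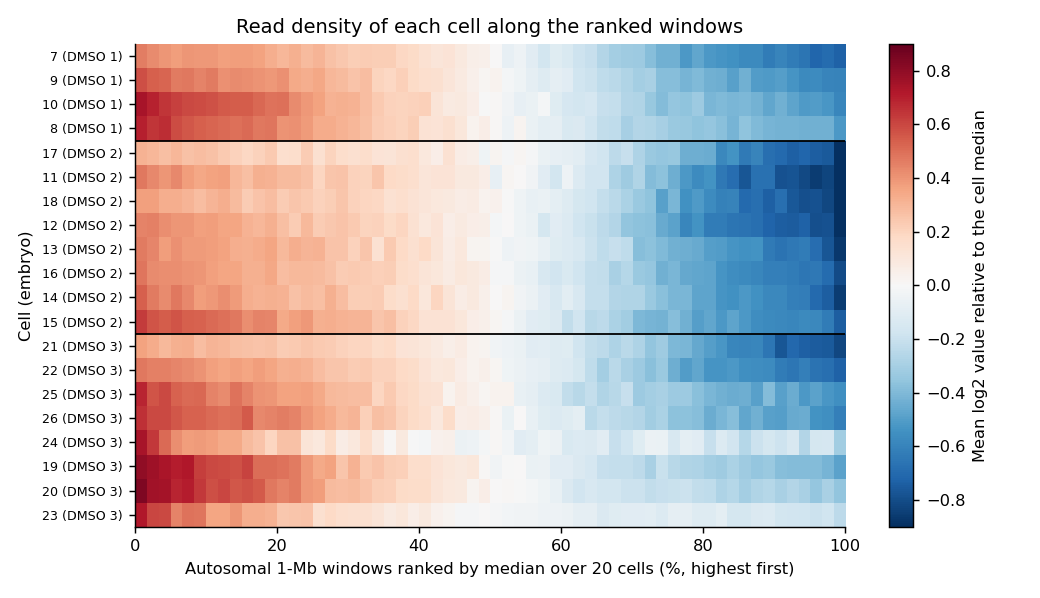
Mean log2 value relative to the cell median (colour) for each of the 20 cells (one line per cell, grouped by embryo) along the 2394 autosomal 1-Mb windows, ranked by the median over the cells in 60 equal groups with the highest at the left. The colour passes from red to blue along the ranking, steeply in most cells. Cells 23 and 24 have pale colours over most of the right side and reach -0.23 and -0.31 in the last group.

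Cells differed widely in how many windows were high. The share of high windows ranged from 28.1% in cell 23 through a median of 56.4% to 67.9% in cell 17. Cell 20 had 37.7%, cell 19 42.4%, cell 18 65.9% and cell 11 66.4%. The order of the windows was alike in most cells. If each cell is given as many high windows as it has, taken from the top of the median profile made from the other 2 embryos, the calls of between 85.9% and 92.0% of the windows matched that order in the 19 cells other than cell 24. In cell 24 they matched in 67.3%. The match that a random order would give depends on the share of high windows and was not computed. Cells with many high windows had them further down the ranking: in level group 4, 66.3% of windows were high in cell 17, 28.3% in cell 7 and 2.08% in cell 20.

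The height of the profile varied less. The amplitude of a cell ranged from 0.69 (cell 23) through a median of 1.07 to 1.21 (cell 11) on the log2 scale, which is 1.62-fold, 2.10-fold and 2.32-fold in read density. Apart from cell 23 the lowest amplitude was 1.00 (cell 24), so that the other 19 cells lay between 1.00 and 1.21. Amplitude and recovered reads were correlated at r = -0.308 (Spearman's rho = -0.244, n = 20 cells). The coefficient was -0.0421 without the 2 cells of most extreme depth and -0.456 without cells 23 and 24. Within DMSO 2 it was -0.555 and within DMSO 3 it was -0.228 (n = 8 cells each). Whether depth had a part in amplitude was not tested. Amplitude and the share of high windows were correlated at r = 0.591 (rho = 0.224), and at 0.0566 without the 2 cells of most extreme share. The noise score deposited by the authors, whose definition was not found in the labels or headers, ran from 0.394 (cell 23) to 0.762 (cell 15) and was correlated with amplitude at r = 0.805 (rho = 0.611, n = 20), or 0.470 without cells 23 and 24. These correlations are over cells that share 3 embryos and are descriptions only.

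Cell 23 had a flat profile with few high windows. Its levels were 0.53 for the upper and -0.02 for the lower part of the fitted mixture, with 16.6% of windows in the upper part, against 58.3% for the median cell. In level group 10, 93.3% of its windows were high, in group 7 28.3% and in group 4 0.833%. Its calls matched the order of the other embryos in 85.9% of windows, the lowest value but that of cell 24. Its recovered reads, 2.36 M, were above the median of the 20 cells, and the cause of its flatness was not tested.

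Cell 24 was not flat: its amplitude was 1.00 and its share of high windows 48.4%. Of the windows in level group 1, 23.3% were nevertheless high in it, and of group 10 91.7%. Its correlation with the profile of the other embryos was 0.479 over all windows, and by chromosome it ranged from 0.227 on chromosome 13 to 0.744 on chromosome 4. On every autosome this was lower than in any other cell, and cell 23 was the lowest of the others on every autosome. Whole chromosomes were also displaced in it: the median level of chromosome 8 was 0.45 against 0.11 over all cells, of chromosome 3 0.24 against -0.14 and of chromosome 14 0.19 against -0.08. Chromosome 13 lay at -0.23 against 0.03 and chromosome 2 at -0.24 against 0.02. Leaving out chromosome 8 gave a correlation of 0.488, close to that over all chromosomes. Its depth of 2.25 M reads was that of a typical cell.

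The similarity of 2 cells was measured as Pearson's r across the 2394 windows. Over the 190 pairs it ranged from 0.368 to 0.918 with a median of 0.806. Pairs within an embryo (62) had a median of 0.830 and pairs between embryos (128) one of 0.794. Without cells 23 and 24 these medians were 0.850 (range 0.765 to 0.918) and 0.807 (range 0.680 to 0.870), so the 2 ranges overlapped widely. Pairs with cell 24 had a median of 0.454 and pairs with cell 23 one of 0.668. Windows of a cell share its library and neighbouring windows are alike, so these coefficients have no p.

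Cells were also compared in what the profile of the other embryos left over. Each cell was first fitted by a straight line on the median profile of the other 2 embryos, and the fit was subtracted. Pairs within an embryo then had a median r of 0.368 and pairs between embryos one of -0.25. Cells of 1 embryo share this reference profile, and the reference holds cells of the embryos with which they are then paired. This alone raises values within embryos and lowers those between embryos, so no conclusion is drawn from the gap. Pairs of 1 cell of DMSO 3 and 1 of DMSO 1 were near 0 (median 0.03), and pairs of DMSO 2 and DMSO 3 were lowest (-0.32). The median profiles of the embryos were correlated at 0.935 for DMSO 1 and DMSO 3, 0.909 for DMSO 1 and DMSO 2, and 0.897 for DMSO 2 and DMSO 3. In the correlations of embryo medians, DMSO 2 was in the 2 lowest. The pair correlations before subtraction did not set it apart, with medians of 0.818 for DMSO 2 with DMSO 1, 0.817 for DMSO 3 with DMSO 1 and 0.763 for DMSO 3 with DMSO 2.

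Of the 20 cells 18 had their closest match within their own embryo; cells 25 and 26 of DMSO 3 were closest to cell 8 of DMSO 1. In 5 pairs each cell was the closest match of the other. These were cells 7 and 9 (r = 0.879) and cells 8 and 10 (0.891) of DMSO 1, cells 12 and 18 (0.918) of DMSO 2, and cells 19 and 20 (0.874) and cells 21 and 22 (0.880) of DMSO 3. In DMSO 1 the pairs were hardly set apart: cells 8 and 9 also had an r of 0.879, and all 6 pairs of that embryo lay between 0.864 and 0.891. In DMSO 2, 7 of the 8 cells had cell 12 or cell 18 as their closest match, and cell 15 had cell 16. Which cells were sisters is not stated in the labels.

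**Figure D2:**
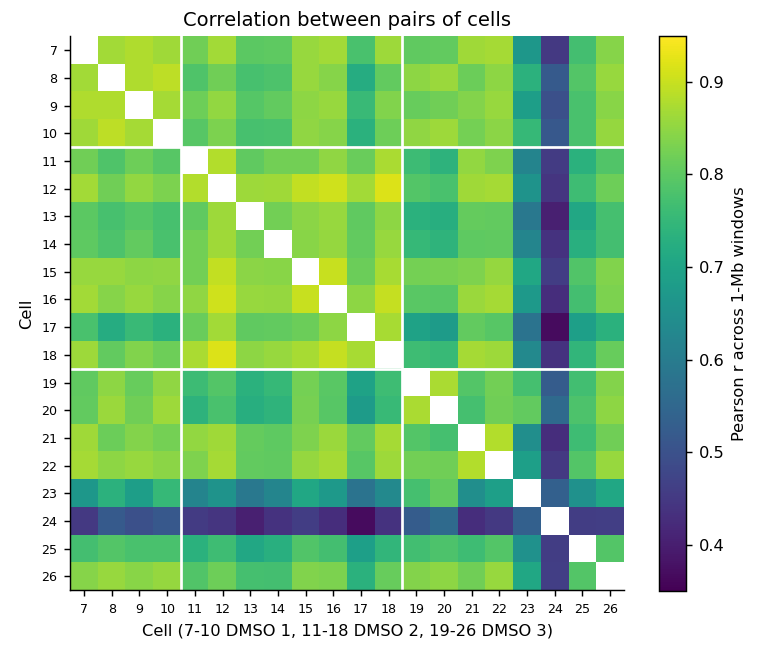
Pearson's r across the 2394 windows (colour) for every pair of the 20 cells, in the order of cell numbers on both axes, with white lines between the embryos. The lines of cells 23 and 24 are the darkest, with median r of 0.668 and 0.454, and within DMSO 3 cells 19 and 20 and cells 21 and 22 form brighter pairs at 0.874 and 0.880.

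The embryos were then compared in 3 measures of the whole profile, each with an exact two-sided permutation test over cells for each of the 3 pairs of embryos and Benjamini-Hochberg adjustment over the 9 tests. No difference passed an adjusted p of 0.05. The share of high windows was 47.2% to 59.6% in the cells of DMSO 1, with a mean of 52.2 ± 5.89% (SD, n = 4). It was 53.7% to 67.9% in DMSO 2, with a mean of 61.5 ± 4.88% (SD, n = 8), and 28.1% (cell 23) to 64.95% (cell 21) in DMSO 3, with a mean of 47.8 ± 11.8% (SD, n = 8). DMSO 2 had the cells with most high windows and DMSO 3 the widest range, and the ranges overlapped.

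DMSO 3 lay 13.7 percentage points under DMSO 2 in the share of high windows, with 6 of its 8 cells below every cell of DMSO 2 (exact permutation p = 0.00793, adjusted p = 0.0713). This difference passed without cell 21 (adjusted p = 0.0126 in the same exact permutation test) and without cell 22 (adjusted p = 0.0336), the 2 cells of DMSO 3 with most high windows. Without cell 23, which has the fewest, the difference was -10.9 points (adjusted p = 0.118), without cell 18 it was -13.1 points (adjusted p = 0.127), and without cells 23 and 24 it was -10.5 points (adjusted p = 0.118), all by the same exact permutation test. Without cells 23 and 24 DMSO 3 minus DMSO 1 was -1.23 points in place of -4.41. DMSO 2 lay 9.32 points above DMSO 1 (exact permutation p = 0.0263, adjusted p = 0.118). The direction of both differences was kept when any 1 cell was left out.

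Mean amplitude was 1.06 ± 0.04 in DMSO 1 (SD, n = 4), 1.10 ± 0.06 in DMSO 2 (SD, n = 8) and 1.01 ± 0.13 in DMSO 3 (SD, n = 8). The largest difference, -0.09 for DMSO 3 minus DMSO 2, had an exact permutation p of 0.0668 (adjusted 0.150). It was -0.05 without cell 23 and -0.04 without cells 23 and 24. The SD across windows, another measure of height, differed by -0.04 for this pair (exact permutation test, adjusted p = 0.0357). The slope on the profile of the other 2 embryos differed by -0.25 (exact permutation test, adjusted p = 0.0042), but it is lower also where the windows lie in another order, and each embryo has its own reference profile, so it is no measure of height alone. The slope was lowest in cells 24 (0.475) and 23 (0.503), but the other 6 cells of DMSO 3, at 0.811 to 0.938, also lay mostly under the cells of DMSO 2, at 0.901 to 1.12.

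Similarity to the other embryos, the correlation of a cell with the median profile of the other 2 embryos, was tightest in DMSO 1. Its 4 cells lay between 0.896 and 0.911, with a mean of 0.902 ± 0.00678 (SD, n = 4). The cells of DMSO 2 lay between 0.794 and 0.903, with a mean of 0.860 ± 0.0376 (SD, n = 8). The cells of DMSO 3 lay between 0.479 and 0.904, with a mean of 0.793 ± 0.141 (SD, n = 8). The lowest p was that of DMSO 2 against DMSO 1 (difference -0.0427, exact permutation p = 0.0424, adjusted p = 0.127). The 2 differences that involve DMSO 3 rested largely on cells 23 and 24. Without these cells DMSO 3 minus DMSO 1 was -0.0324 in place of -0.110, and DMSO 3 minus DMSO 2 was -0.0060 in place of -0.0670. Cells 23 and 24 also enter the reference profile of the other embryos. Without them DMSO 2 minus DMSO 1 was -0.0265 (exact permutation p = 0.204). Leaving out cell 20 alone, also of DMSO 3, moved it about as far, to -0.0282 (exact permutation p = 0.168).

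**Figure D3:**
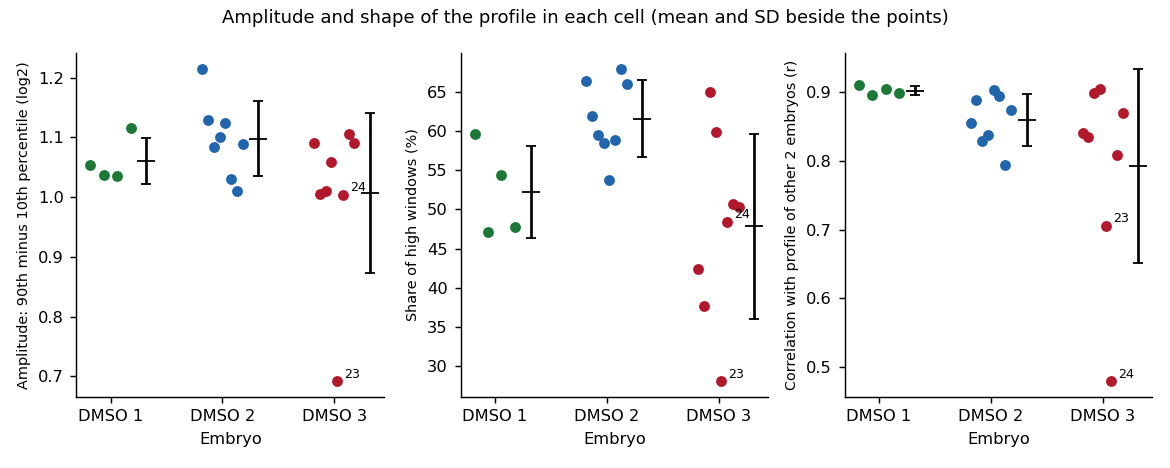
Amplitude (log2), share of high windows (%) and correlation with the median profile of the other 2 embryos, one point per cell by embryo, with the mean and SD of the embryo as a bar beside its points. The vertical axes do not start at 0. Cell 23 lies lowest in amplitude (0.69) and share (28.1%), and cell 24 lowest in correlation (0.479).

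To find where in the genome the embryos differed, limma was fitted to all 2394 windows with the embryo as a factor of 3 levels. The moderated F test called 155 windows at an adjusted p under 0.05, which is 6.47% of those tested. Contrasts of the same fit called 25 windows (1.04%) between DMSO 2 and DMSO 1, of which 4 (0.167%) were higher and 21 (0.877%) lower in DMSO 2, 9 windows (0.376%) between DMSO 3 and DMSO 1, of which 5 (0.209%) were higher and 4 (0.167%) lower in DMSO 3, and 308 windows (12.9%) between DMSO 3 and DMSO 2. The number of cells differs between these contrasts, since DMSO 1 has 4. Taking the amplitude out of each cell left 46 windows in the F test and 145 between DMSO 3 and DMSO 2.

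The counts rested in part on single cells and on how each cell was centred. Without cells 23 and 24 the F test called 91 windows and the contrast of DMSO 3 with DMSO 2 called 114. Leaving out cell 11, 12, 18, 20 or 23 alone left 102, 93, 84, 89 and 88 windows in the F test, and leaving out cell 21 or 22 gave 311 and 237. For DMSO 3 against DMSO 2, leaving out cell 18, 20 or 23 left 191, 162 and 154 windows, and leaving out cell 21 gave 517. Leaving out 1 cell also moved the contrast of DMSO 2 with DMSO 1 to 15 windows (cell 10) and that of DMSO 3 with DMSO 1 to 3 windows (cell 7, 9 or 10) or 5 windows (cell 8).

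The direction of the windows between DMSO 3 and DMSO 2 followed the centring. With cells centred on their median, as deposited, DMSO 3 was higher in 289 (12.1% of all windows tested) and lower in 19 (0.794%), and the median difference over all windows was 0.08 in the same direction. With cells centred on their mean read density the median difference over all windows was -0.0021, and 128 windows passed, 80 higher and 48 lower in DMSO 3. With cells centred midway between their 5th and 95th percentiles the median difference was -0.10, and 308 windows passed, 36 higher and 272 lower. Under all 3 centrings 55 windows passed in the same direction, 36 higher and 19 lower in DMSO 3, and chromosome 12 held 10 of these. Chromosomes 1 and 7 held 8 each, where chromosomes 12, 1 and 7 have 118, 193 and 140 of the 2394 windows. Between DMSO 2 and DMSO 1 the split was 4 higher and 21 lower in DMSO 2 as deposited and 14 and 12 under the last centring, and 16 windows passed in the same direction under all 3. For the F test 43 windows passed under all 3 centrings. The levels at which its calls lay moved too: 80.6% of the windows called were low in the median profile as deposited, 62.7% with centring on the mean density and 39.7% with centring on the midpoint, where 43.4% of all windows were low.

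The longest region that differed between embryos was chr12:18000001-26000000. Its mean level was 0.37 to 0.59 in the 4 cells of DMSO 1 and 0.29 to 0.92 in the 8 cells of DMSO 3, but -0.68 to -0.10 in the 8 cells of DMSO 2. All cells of DMSO 2 thus lay below all others in a region that was high elsewhere. At its leading window, the one with the lowest adjusted p, chr12:18000001-19000000, DMSO 2 lay -1.13 ± 0.11 (SE) from DMSO 1 (limma, adjusted p = 4.1e-10) and DMSO 3 lay 1.18 ± 0.09 above DMSO 2 (limma, adjusted p = 7.6e-14), while DMSO 3 and DMSO 1 differed by 0.05 ± 0.11 (adjusted p = 0.951). The window kept its call and direction under every alternative tried.

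The single window with the lowest adjusted p was chr7:33000001-34000000 (limma F test, adjusted p = 1.3e-19). With robust eBayes its adjusted p was 8.1e-08, above the 9.5e-15 of chr12:18000001-19000000. The filter on windows with few reads removes it, as it does chr6:130000001-131000000. Its level was -0.44 to 0.13 in DMSO 1 and -1.07 to -0.32 in DMSO 3, but -5.12 to -2.96 in the cells of DMSO 2. All 8 cells of DMSO 2 had only a small part of the read density of the other cells there. The difference was -3.75 ± 0.22 (SE) for DMSO 2 minus DMSO 1 (limma, adjusted p = 1.5e-17), and DMSO 3 lay -0.69 ± 0.22 from DMSO 1 (limma, adjusted p = 0.315). A difference of this size exceeds the whole amplitude of any cell.

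Another pattern was seen in chr4:145000001-149000000, inside the long high run of chromosome 4. The cells of DMSO 1 lay at 0.19 to 0.27, those of DMSO 2 at 0.25 to 0.53 and those of DMSO 3 at 0.58 to 0.93. DMSO 3 lay above both other embryos without overlap. At chr4:146000001-147000000 all 3 contrasts passed: 0.59 ± 0.10 (SE) for DMSO 2 minus DMSO 1 (limma, adjusted p = 4.7e-05), 1.17 ± 0.10 for DMSO 3 minus DMSO 1 (adjusted p = 2.4e-12) and 0.58 ± 0.08 for DMSO 3 minus DMSO 2 (adjusted p = 6.4e-07).

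In chr6:130000001-134000000 the cells of DMSO 2 lay at -1.05 to -0.70, under DMSO 1 at -0.58 to -0.39 and DMSO 3 at -0.45 to 0.17. At chr6:130000001-131000000 DMSO 3 lay 0.93 ± 0.10 (SE) above DMSO 2 (limma, adjusted p = 1.2e-09). DMSO 2 was again the embryo without overlap with the other 2.

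The other 3 of the 6 longest regions were low in the median profile and lowest in DMSO 2. In chr14:81000001-87000000 the means were -0.50 ± 0.16 (SD, n = 4), -0.71 ± 0.11 (SD, n = 8) and -0.28 ± 0.19 (SD, n = 8) in DMSO 1, 2 and 3, and in chr12:90000001-95000000 they were -0.30 ± 0.09, -0.67 ± 0.15 and -0.28 ± 0.17. In chr8:101000001-106000000 they were -0.53 ± 0.12, -0.70 ± 0.11 and -0.30 ± 0.24. In all 3 the cells of DMSO 1 and DMSO 3 overlapped, and cell 24 was the highest cell on chromosomes 8 and 14. At the leading window on chromosome 8 DMSO 3 lay 0.43 above DMSO 2 (limma F test over the 3 embryos, adjusted p = 0.00901). The difference was 0.34 without cells 23 and 24 (adjusted p = 0.0576), 0.39 with the amplitude taken out (0.0908), 0.34 with centring on the mean read density (0.0512) and 0.24 with centring on the midpoint (0.136), so it kept its direction but not its call.

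**Figure D4:**
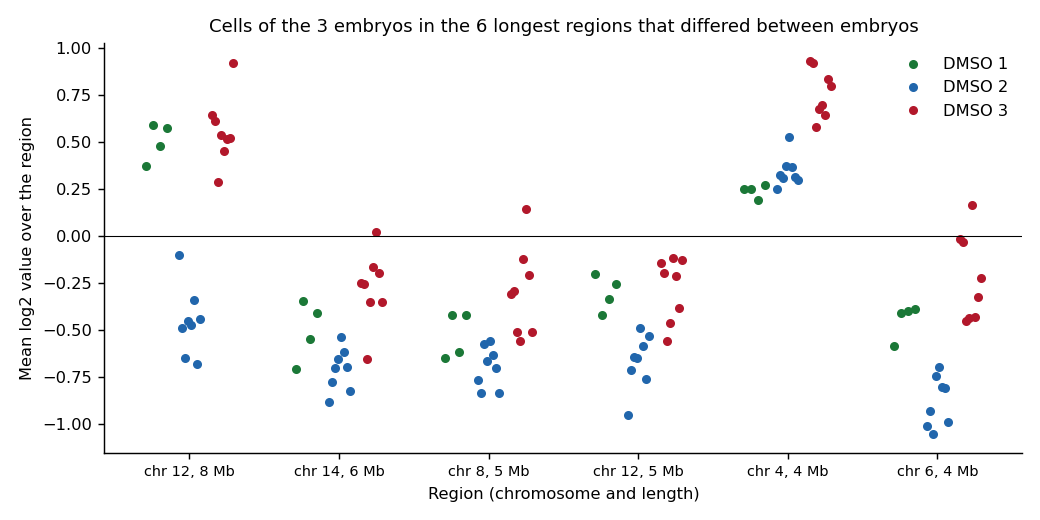
Mean log2 value relative to the cell median over each of the 6 longest regions that differed between embryos, one point per cell, coloured by embryo. In the 8-Mb region of chromosome 12 all cells of DMSO 2 lie below 0 and all others above it, and in the 4-Mb region of chromosome 4 the cells of DMSO 3 lie above the cells of the other embryos.

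Called windows were unevenly spread over the chromosomes. Chromosome 12 had 16.9% of its windows called in the F test, chromosome 14 15.6% and chromosome 7 12.1%, against 6.47% of all windows. Chromosomes 16 and 2 had 1.05% and 1.12%. Chromosome 12 was also where pairs of cells were least alike, with a median r of 0.736, and chromosome 16 where they were most alike, at 0.869.

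Within embryos, the spread of a window over cells was measured as the pooled within-embryo SD. Its median over windows was 0.18 on the log2 scale, with 0.12 at the 5th percentile and 0.26 at the 95th. This was 3.54 times the counting error in the median window, and 2384 windows (99.6%) had more than 2 times their counting error. The counting error is that of the reads in 1 bin, while a window value is the median of at least 3 overlapping bins. Amplified reads are also not independent molecules. The counting error is therefore a rough scale and not a bound. The median SD was 0.13 in DMSO 1, 0.15 in DMSO 2 and 0.20 in DMSO 3, and 0.18 in DMSO 3 without cells 23 and 24.

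With cells centred on their median, low windows had larger SDs between cells than high ones. The median SD was 0.21 in level group 1, 0.16 in group 8 and 0.17 in group 10. Over windows the SD was correlated with the level at a Spearman's rho of -0.40, with windows of 1 chromosome and of 1 set of libraries not being independent. Of the 120 most variable windows 103 were low in the median profile, and of the 120 least variable 22 were low, where 1040 of all 2394 windows were low. Low windows also hold fewer reads: the counting error was 0.06 in level group 1 and 0.04 in group 10. It was well under the SD in every level group, and its part in the trend was not tested. The SD was not taken under other centrings, so the part of the centring in the trend was not tested either. Over the 20 cells the lower level of the fitted mixture had an SD of 0.19 and the upper level one of 0.13.

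**Figure D5:**
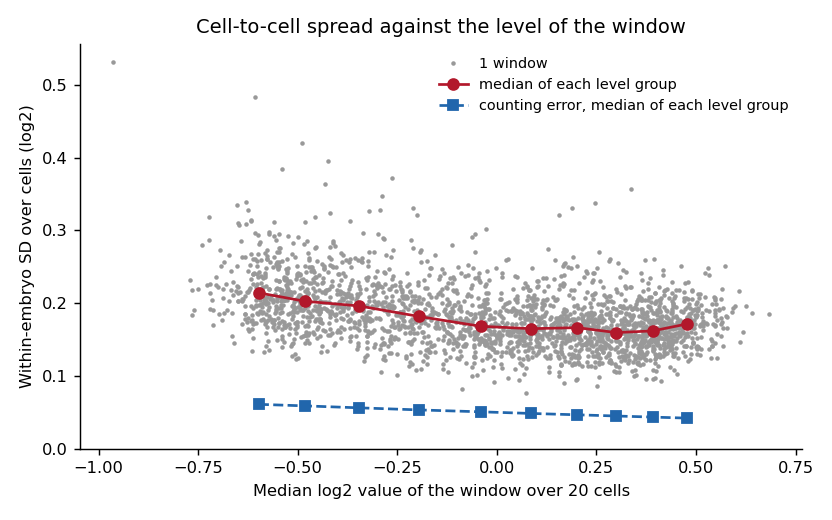
Pooled within-embryo SD of each 1-Mb window over cells (log2, vertical axis) against the median level of the window (log2, horizontal axis), with the median SD (red) and the median counting error (blue) of each of the 10 level groups. The red line lies at 0.21 at the low end and 0.16 to 0.17 over the upper 6 groups, above the blue line throughout.

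The most variable region by the rule used was chr14:3000001-7000000, next to the centromeric end of chromosome 14, with an SD of 0.38 against a counting error of 0.06. Its level ran from -1.06 (cell 17) through -0.51 to 0.28 (cell 24). In DMSO 1 alone, cell 7 was at -0.97, cell 9 at -0.72, cell 10 at -0.40 and cell 8 at -0.06. The region was high in 1 of the 20 cells, and its SD was 0.36 without cell 24. The embryos differed there as well: at chr14:4000001-5000000 DMSO 3 lay 0.46 ± 0.11 (SE) above DMSO 2 (limma, adjusted p = 0.00674).

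The next 5 were chr8:38000001-41000000 (SD 0.32), chr14:39000001-45000000 (0.31), chr8:50000001-59000000 (0.30), chr3:42000001-46000000 (0.30) and chr3:71000001-78000000 (0.29). All were low in the median profile, and cell 24 was the highest cell in each. In chr8:50000001-59000000 cell 24 was at 0.53 and the other 19 cells between -0.70 and -0.07, and the SD was 0.22 without it. On chromosome 3 the SDs without it were 0.23 in both regions. When the regions were chosen again without cell 24, the first 3 were chr14:3000001-7000000, chr14:40000001-45000000 and chr1:114000001-120000000. In the last the cells ran from -1.19 (cell 11) through -0.47 to 0.04 (cell 23), with an SD of 0.27.

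Only 2 regions met the rule for low spread. In chr11:44000001-50000000 the cells lay between -0.01 (cell 18) and 0.21 (cell 26), with a median of 0.06 and an SD of 0.11. In chr17:45000001-49000000 they lay between 0.25 (cell 13) and 0.52 (cell 20), with a median of 0.37 and an SD of 0.11. The second was high in all 20 cells, cells 23 and 24 included, while the first lay near the middle of the profile and was high in 13. Their SDs were 0.13 and 0.15 with the amplitude taken out, and 0.09 and 0.08 as scaled median absolute deviations.

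Which windows counted as extreme depended on the measure of spread. Of the 120 most variable windows, 51 were also among the 120 most variable with the amplitude taken out, 49 with the scaled median absolute deviation and 71 without cell 24. Of the 120 least variable, 73, 29 and 62 were shared. The 120 most variable windows are 5% of all windows. Of the chromosomes named above as displaced in cell 24, chromosomes 3, 8 and 14 held 25, 22 and 13 of them. These chromosomes have 156, 126 and 122 of the 2394 windows. Chromosomes 2 and 13, also displaced in it, held 6 and 4 and have 178 and 117 windows. Chromosomes 4, 11 and 19, with 152, 118 and 58 windows, held 0. Whether the displacement had a part in these counts was not tested.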

How the data were processed

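The cells and measures were chosen with earlier results of these data known. The authors deposited log2 values per bin relative to the median of each cell (per the file headers). The build was mm9, per the submitters' processing notes; the sources used here did not give the aligner, filters or counting. The deposited metadata also hold a noise score and pass marks as a score of 1 or 0, and other columns of names (embryo, collection window), per the file headers.

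Of 13103 bins at steps of 200 kb, 12274 were autosomal and 12005 had a value in every cell. Whole read numbers were recovered for 100% of values (tolerance 0.01) by giving bins 5 steps apart a median in common, so bins were treated as 1 Mb wide and overlapping. The median of at least 3 bins with starts in the same megabase gave 2394 of 2425 possible windows. Median centring moves all windows of a cell together, so differences between cells depend on it. Tests used limma 3.58.1 in R 4.3.3 and exact two-sided permutation tests over cells in Python 3.11.15. The limma test was first tried on simulated data. It called 87% of 100 windows shifted by 0.4 log2 units and 19% of 100 shifted by 0.2, with 5 false calls among 2194. The simulated noise was independent between windows, without shifts shared by all windows of a cell. Its false calls therefore do not measure those in the real cells.

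Named regions were windows in the top or bottom 5% of the SD or the level, or called in the F test, joined across at most 1 window and kept with at least 3 windows. From these the 6 of highest and the 6 of lowest SD (2 qualified), the 5 of highest and the 5 of lowest level, the 6 longest called regions and the window with the lowest adjusted p are named. Gene and base content of windows were not analysed here. Alternatives were each cell left out, 1 bin in 5, a filter on low reads, amplitude taken out, robust eBayes and other definitions of each measure.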

Additional observations from a re-analysis of the deposited data

Results flagged for a closer look

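In sets of 4 to 10 cells of 1 embryo, the lowest and the highest cell were set against the others by Dixon's ratio of the gap to the range; 3 of 21 sets held a cell past the 95% limit, where chance gives about 1 in 20. All 3 were in embryo DMSO 3. The sets are related measures of the same cells, so they are not separate draws to set against that rate. Cell 23 had an amplitude of 0.69, with the next cell at 1.00. Cell 24 had a correlation of 0.479 with the profile of the other embryos, with the next cell, cell 23, at 0.705. Its ratio of 0.532 was just past the limit of 0.526. In cell 24 the calls of 67.3% of windows matched the order of the other embryos, with the next cell at 85.9%. Both flags of cell 24 set it against the profile of the other embryos, so they are not separate events.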

How the results depend on the processing

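The alternatives without cells 23 and 24 (or cell 24), without embryo DMSO 1 and with other centrings were chosen after seeing the data. The F test called 46 windows with the amplitude taken out, 75 with centring on the mean read density and 91 without cells 23 and 24, against 155. Without DMSO 1 it becomes the contrast of DMSO 3 with DMSO 2 and called 237, against 308. DMSO 2 against DMSO 1 gave 12 with the amplitude taken out and 26 with centring on the midpoint, 14 higher and 12 lower, and 16 windows passed in 1 direction under all 3 centrings. DMSO 3 against DMSO 1 gave 5 with the amplitude taken out and 11 without cells 23 and 24, the majority then lower. DMSO 3 against DMSO 2 gave 145 with the amplitude taken out, 128 and 308 with centring on the mean density and the midpoint, the latter mostly lower, and 114 without cells 23 and 24. Leaving out each cell in turn gave 84 to 311 windows in the F test and 15 to 31, 3 to 12 and 154 to 517 in the contrasts of DMSO 2 with 1, 3 with 1 and 3 with 2. In the same order, amplitude differences then ran from 0.02 to 0.06, from -0.07 to -0.0081 and from -0.10 to -0.05, similarity from -0.0511 to -0.0282, from -0.117 to -0.0559 and from -0.0767 to -0.0239, and the share of high windows from 7.63 to 11.8, from -6.86 to -1.60 and from -16.2 to -10.9 points. Amplitude of DMSO 3 minus DMSO 2 passed as the SD across windows (-0.0426) and in the slope (-0.25), which is no measure of height alone, and DMSO 3 minus DMSO 1 was 2.3e-05 without cells 23 and 24. The median SD of windows was 0.14 as a scaled median absolute deviation. The causes were not tested. Of 100 windows shifted by 0.2 in simulation 19% were called, so smaller differences may be missed. No paired analysis was possible because cell numbers are library numbers and no number is shared between embryos. Gene and base content per window was not run.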
